A study of Drosophila melanogaster with 2 samples.

Results

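The genes kirre, rst, sns and hbs encode the immunoglobulin-domain adhesion receptors of the Nephrin family through which myoblasts recognise each other before they fuse. They were chosen by name for that shared role, and they are 4 of 13968 protein-coding genes. The study located a homeodomain protein, the GFP-tagged product of lms (CG13424, lateral muscles scarcer), on chromatin of whole Drosophila melanogaster embryos by chromatin immunoprecipitation and sequencing (ChIP-seq) with an antibody against GFP. The material was 1 group with 2 biological replicates. It came from 1 stably transgenic line in which GFP was fused to the C-terminus of the lms product, collected between 6 and 18 h of embryogenesis with both sexes pooled. Because whole embryos were used, a peak could not be assigned to founder cells, fusion-competent myoblasts or any other cell type. No second condition was available, so the measurements below are positions and ranks of peaks, set beside the same measurements over all genes or all peaks.

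Each peak was represented by its summit. A gene counted as bound when a summit lay in the annotated gene or in the 2 kb upstream of it, a stretch called the window of the gene. The main list, made by the authors with the irreproducible discovery rate (IDR) procedure, which uses agreement between replicates, held 7521 peaks. A pooled list, from the joint call of both replicates, and 1 list for each replicate held 30000 peaks each. The IDR peaks were the 7521 of highest signal in the pooled list, so a given IDR peak need not have a match in each replicate. Peaks were ranked by the authors' signal, a score per peak whose scale was not stated, so signals and ranks are given within a list and are not compared between lists as levels. Coordinates are on dm6 and count from 1. kirre (FBgn0028369) lies on X at 2740384-3134532 on the plus strand and spans 394 kb, of which 98% is intron. rst (FBgn0003285) lies on X at 2950399-2973834 on the minus strand, spans 23.4 kb and sits wholly inside kirre, on the opposite strand. sns (FBgn0024189) lies on 2R at 8798489-8856091 on the plus strand and spans 57.6 kb, and hbs (FBgn0287864) lies on 2R at 15011396-15042134 on the plus strand and spans 30.7 kb.

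In the embryonic body wall each muscle is seeded by a founder cell that fuses with fusion-competent myoblasts. Kirre (also called Dumbfounded) and Rst (Roughest) are receptors of founder cells, where they act redundantly. Sns (Sticks and stones) and Hbs (Hibris) are carried by fusion-competent myoblasts, and their extracellular domains bind those of Kirre and Rst on the facing cell. The contact recruits adaptor proteins and actin regulators that open the fusion pore. Kirre and Sns also build the slit diaphragm of nephrocytes, the filtration cells of the fly, and Rst and Hbs are known for sorting cells in the pupal eye. The gene lms is known from the lateral muscles of the body wall.

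The strongest binding of the family was in kirre, and the sequence under its summits is shown first. The windows below reach 50 bp to each side of the summit and come from the plus strand of dm6 (RefSeq release 6 genome). The first 4 are the 4 highest IDR peaks of kirre, at ranks 433, 697, 786 and 788. The other 3 are the highest of its intron 9, the intron with most summits, at ranks 1997, 2028 and 2297. Capitals mark TAATTA, a homeodomain core, and CANNTG, the E-box bound by bHLH factors such as Twist, on either strand.
kirre chrX:3097165-3097265: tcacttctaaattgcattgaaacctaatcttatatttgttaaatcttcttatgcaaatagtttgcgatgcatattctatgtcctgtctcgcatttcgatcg
kirre chrX:2786726-2786826: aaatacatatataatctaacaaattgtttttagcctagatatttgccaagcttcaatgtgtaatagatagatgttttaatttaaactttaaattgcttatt
kirre chrX:2787396-2787496: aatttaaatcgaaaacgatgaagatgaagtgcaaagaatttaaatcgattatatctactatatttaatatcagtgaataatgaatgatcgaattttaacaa
kirre chrX:2744184-2744284: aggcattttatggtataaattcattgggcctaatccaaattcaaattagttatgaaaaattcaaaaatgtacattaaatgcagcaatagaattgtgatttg
kirre chrX:3018831-3018931: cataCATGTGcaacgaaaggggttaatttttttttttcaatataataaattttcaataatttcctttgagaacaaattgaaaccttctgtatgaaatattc
kirre chrX:3019752-3019852: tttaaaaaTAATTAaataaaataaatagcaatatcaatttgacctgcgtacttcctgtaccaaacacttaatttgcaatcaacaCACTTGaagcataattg
kirre chrX:3007929-3008029: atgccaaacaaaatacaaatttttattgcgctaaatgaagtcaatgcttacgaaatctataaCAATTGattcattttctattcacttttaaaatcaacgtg
None of the 4 highest windows held either motif. Each of the 3 windows of intron 9 held 1 E-box, and the window at rank 2028 also held 1 TAATTA.

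Of the 4 genes, 3 had an IDR summit in their window, against 40.0% of all protein-coding genes (5583 of 13968). The founder cell receptor kirre had 30 IDR summits and rst had 1. Of the receptors of fusion-competent myoblasts, hbs had 2 and sns had 0. The rst summit was one of the 30 of kirre, because rst is nested in it, which left 32 distinct summits for the family. The share of bound genes was higher among long genes: 70.5% of the 1020 genes of 20 kb or more were bound, and 72.8% of the 313 genes of 50 kb or more, so 3 bound members of 4 long genes were close to the share of genes of their size.

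All 4 genes held a summit in the pooled list, where 64.6% of protein-coding genes did. The pooled counts were 125 in kirre, 13 in rst, 3 in sns and 10 in hbs. Replicate 1 gave 118, 14, 3 and 9 summits in the same order, with 63.9% of protein-coding genes bound, and replicate 2 gave 106, 10, 8 and 7, with 71.6% bound. The order of kirre, rst and hbs was the same in both replicates and in the pooled list. sns had the lowest count in the pooled list and in replicate 1 and stood above hbs in replicate 2. The pooled list was called on both replicates and is no separate check. Of its 125 kirre summits 88% had a partner within 150 bp in replicate 1 and 56.8% in replicate 2.

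The 7521 highest peaks of each replicate gave counts close to those of the IDR list. In replicate 1 they placed 31 summits in kirre, 1 in rst, 0 in sns and 2 in hbs, with 39.5% of protein-coding genes bound. In replicate 2 they placed 28, 1, 0 and 1, with 41.4% bound. The absence of sns from the strong peaks therefore held in each replicate alone.

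No member had an IDR summit within 500 bp of its own annotated start site (0 of 4). The share of all protein-coding genes was 28.8%, from which a count over 4 genes cannot be told apart. In the pooled list 53.4% of protein-coding genes had a summit within 500 bp of a start site of their own, and kirre and rst were among them. kirre has 6 start sites, and its weak pooled summits lay 476 bp upstream of the first (rank 25060), 417 bp past the start of kirre-RG (rank 25462) and 31 bp past the start of kirre-RC (rank 21941). Replicate 1 also had a summit within 500 bp of each of these starts, and replicate 2 had none there. The start of rst had a pooled summit 67 bp inside the gene at rank 15031, which replicate 1 placed at 27 bp and rank 15353 and replicate 2 at 113 bp and rank 14118. The rst start was therefore the one start site of the family with a peak within 500 bp in both replicates. At the hbs start only replicate 1 had a summit, 461 bp upstream at rank 11144, and at the sns start neither replicate had one within 500 bp.

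kirre had more IDR summits than any other protein-coding gene. The next gene by count, named here only for that place, was CG1677 with 21. All 30 summits lay in introns of kirre, and they stood at IDR ranks from 433 to 7329 with a median of 4473. Of the 30, 13 were among the 3760 strongest peaks of the list. The signal ran from 139 to 1313 with a median of 226, against a median of 267 over all IDR peaks. From the strongest to the weakest rank quartile of the list, kirre had 4, 9, 6 and 11 summits. The weakest quartile thus held the largest count, 11 of 30, and the strongest quartile the smallest, 4. The quartiles are of equal size over all IDR peaks, and no test was made of the difference.

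**Figure D1:**
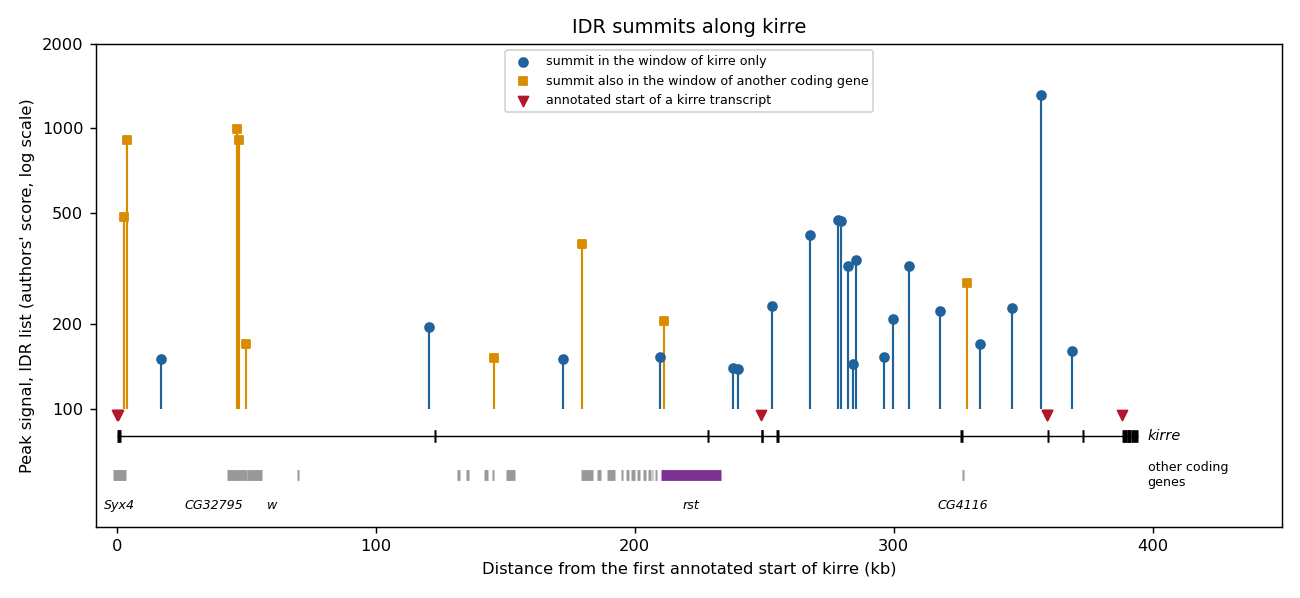
IDR summits along kirre, with the distance from the first annotated start in kb on the x axis and the authors' signal on a log y axis. Blue points lie in the window of kirre only and orange squares also in the window of another coding gene; red triangles mark start sites, black boxes exons of kirre, grey boxes other coding genes and the purple box rst. The highest point, at 357 kb and a signal of 1313, is blue, the next 3 by signal are orange, and the run of blue points from 268 to 318 kb is intron 9.

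The highest IDR peak of kirre had a signal of 1313 and rank 433. Its interval was 3096990-3097403 on X with the summit at 3097215, which is the first sequence shown. It lay 92.9% of the way along intron 10 and 2335 bp upstream of the start of kirre-RC. Replicate 1 had the same peak at rank 443 with a signal of 1047, and replicate 2 at rank 395 with a signal of 268. It was also the IDR summit nearest to any start site of kirre, and no other coding gene had its window there.

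The next 3 peaks of kirre by signal lay in the windows of smaller genes inside or beside it. CG32795, on the opposite strand inside intron 3, held the summits at 2786776 (rank 697, signal 995) and 2787446 (rank 786, signal 912), which were 2546 and 1876 bp past one of its starts. Replicate 1 ranked them 730 and 817, and replicate 2 ranked them 577 and 772. Syx4, which encodes a syntaxin and overlaps the 5' end of kirre on the opposite strand, had the summit at 2744234 (rank 788, signal 912) 158 bp upstream of its start. That peak ranked 734 in replicate 1 and 1258 in replicate 2. A second Syx4 summit, at 2743282 (rank 1941, signal 482), lay 324 bp upstream of another Syx4 start.

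Of the 30 summits, 21 lay in the window of kirre alone and 9 also in that of another coding gene. The window of kirre holds 23 other coding genes, 21 of them wholly inside kirre, and 6 of the 23 had an IDR summit in their own window. These were Syx4 with 2, CG32795 with 3, and CG14419, CG3588, rst and CG4116 with 1 each. The eye colour gene w (white), which also lies inside kirre, had 0 IDR summits and 2 pooled summits. Within 500 bp of a start of another gene there were 5 of the 30 summits, at Syx4 (2), CG32795, CG14419 and CG3588. The 25 others lay in no promoter.

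Beyond the 3' end of kirre lies N (Notch), the receptor of the lateral inhibition that selects muscle progenitors. An IDR summit at 3134556 stood 24 bp past the end of kirre and 314 bp upstream of the start of N, at rank 6956 with a signal of 147. It fell outside the window of kirre and was not counted for it, and it is named because of its position, seen in the peak list.

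The start of kirre-RG, 249 kb along the gene, divided kirre into stretches that differed in summit density. The first 249 kb held 14 IDR summits (0.563 per 10 kb) with a median rank of 5598, and the 145 kb from the RG start to the end held 16 (1.10 per 10 kb) with a median rank of 3953. Of the 14 in the first stretch, 8 also lay in the window of another coding gene, against 1 of the 16 in the second. Counting only summits in the window of kirre alone, the densities were 0.241 and 1.03 per 10 kb. These densities still divide by the full length of each stretch. Of the other coding genes only CG4116 lies in the second stretch, so few summits there could fall in the window of another gene. The difference in density was wider without the shared summits, and its cause was not tested. The second stretch was also the denser one in the pooled list (2.45 and 4.26 per 10 kb), in replicate 1 (2.33 and 3.99) and in replicate 2 (2.25 and 3.37). The division at this start site was chosen after the positions had been seen, and no test was made of it.

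By intron, the summits were spread over 7 of the 8 introns of 5 kb or more. Intron 3, the longest at 122 kb, held 7 (0.576 per 10 kb), and intron 4, of 105 kb, held 5 (0.474 per 10 kb). Intron 9, of 70.6 kb, held 10 (1.42 per 10 kb), which is 33.3% of the summits in 17.9% of the length of the gene. Intron 9 thus had most summits of any kirre intron. None of its 10 lay in the window of another coding gene, because no such window reaches into intron 9. Intron 10, of 33.0 kb, held 4 (1.21 per 10 kb), intron 5 held 2, introns 7 and 11 held 1 each, and intron 12, of 15.4 kb, held 0. In replicate 1 intron 9 had 4.67 summits per 10 kb and in replicate 2 it had 4.11, above introns 3 (2.22 and 2.06) and 4 (2.18 and 2.28) in both. It was not the densest: intron 7, of 5.58 kb, had 1.79 IDR summits per 10 kb and 5.38 summits per 10 kb in each replicate, and intron 10 had 4.24 in replicate 2.

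**Figure D2:**
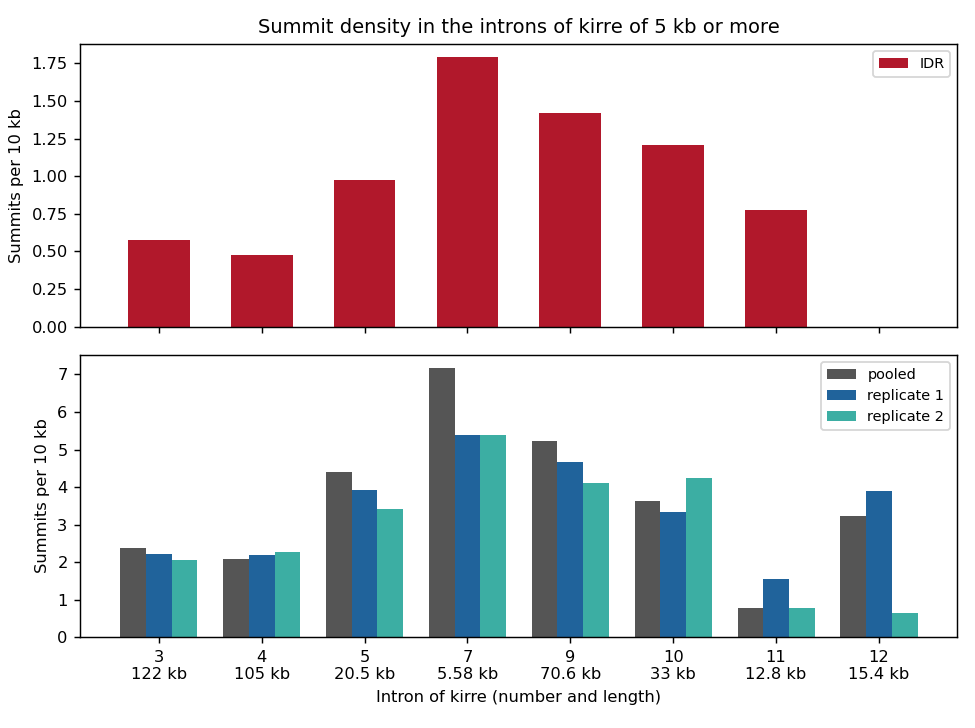
Summits per 10 kb in the introns of kirre of 5 kb or more, numbered from the 5' end, with IDR summits above and the pooled and replicate lists below. Introns 3 and 4, the longest, had the lowest pooled densities apart from intron 11 (2.39 and 2.09 per 10 kb), and intron 9 had 5.24; bars for intron 7 rest on 1 IDR summit in 5.58 kb.

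The 10 summits of intron 9 ranked from 1997 to 7043 with signals from 145 to 471, and 6 of them were among the 3760 strongest IDR peaks. The highest, at 3018881, had a signal of 471 at rank 1997, with rank 1953 in replicate 1 and 2373 in replicate 2. Its neighbour at 3019802 had a signal of 466 at rank 2028, with ranks 2023 and 2309. These neighbours opened the densest 10 kb of the gene, in which 5 summits spanned 6829 bp from 3018881 to 3025710, 278 kb from the first start. Over the whole gene neighbouring summits were 670 bp to 71.0 kb apart with a median of 10902 bp, and 4 of the gaps were under 1 kb.

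Most summits of kirre were far from any of its own starts. The distance to the nearest own start ran from 2335 to 120338 bp with a median of 34624 bp, and 4 of 30 summits were within 5 kb. The farthest, at 2861143 near the end of intron 3, ranked 5205. One summit, at 3058163 in intron 9, fell in an annotated transposon (pogo{}30), at rank 4532. The single start codon of all kirre transcripts, at 3129278, lies past the last of these introns, so all 30 summits were upstream of the coding sequence of kirre.

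All 30 kirre summits were found in both replicates, with a summit within 150 bp. Replicate 1 placed its summits 0 to 59 bp from those of the IDR list (median 0.5 bp), and replicate 2 placed them 0 to 108 bp away (median 19 bp). Replicate 1 ranked them from 443 to 8289 with a median of 4660, and 1 of the 30 stood beyond its 7521 highest peaks. Replicate 2 ranked them from 395 to 11314 with a median of 3974, and 6 stood beyond its 7521 highest. Over the 30 peaks the ranks in replicate 1 and replicate 2 gave a Spearman rho of 0.877, which share the 2 libraries and are not independent. The weakest peak in replicate 2 was that at 3036709 in intron 9, with IDR rank 6686, rank 6624 in replicate 1 and rank 11314 in replicate 2.

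**Figure D3:**
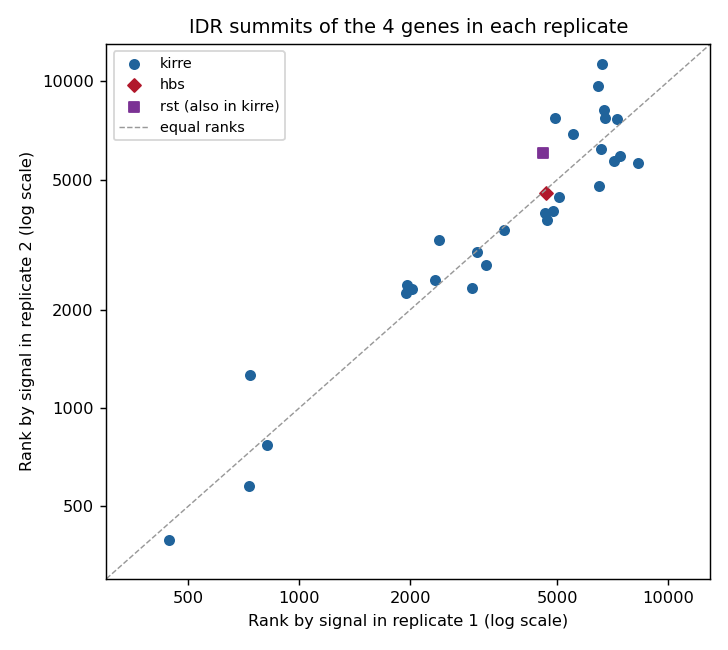
Rank of each IDR summit of the family in replicate 1 (x axis) and replicate 2 (y axis), both on log scales, for summits found in both replicates within 150 bp. The dashed line marks equal ranks. Blue circles are kirre, the purple square the summit shared by rst and kirre and the red diamond the 1 hbs summit found in both; the 4 highest kirre peaks lie apart from the rest, at ranks 443 to 817 on the x axis and 395 to 1258 on the y axis.

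The pooled list held 95 weaker summits in kirre besides the 30, the best of them at rank 7844 with a signal of 129. In the full lists 67 of the 118 kirre summits of replicate 1 (56.8%) had a partner in replicate 2, and 65 of the 106 of replicate 2 (61.3%) had one in replicate 1. Over all peaks the shares were 49.7% and 49.3%. More of the kirre peaks than not were thus seen in both replicates, weak and strong ones counted alike.

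rst, the other receptor of founder cells, had its single IDR summit at the far end of the gene. The peak spanned 2951584-2951993 on X with the summit at 2951789, at rank 4934 with a signal of 206. It lay 22.0 kb from the rst start, in the 3' UTR of the longer transcript rst-RB and 43 bp past the 3' end of the shorter transcript rst-RA. Replicate 1 had it at rank 4568 with a signal of 184 and replicate 2 at rank 6049 with a signal of 31.9. A second IDR summit, at 2950275 (rank 6698, signal 153), lay 124 bp past the 3' end of rst-RB, outside the window of rst and in that of kirre. Both annotated 3' ends of rst thus had a summit within 150 bp. This pairing was chosen after the values had been seen, and the 3' end peaks also lie in intron 4 of kirre, so they could not be assigned to either gene.

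The other 12 pooled summits of rst were weaker. The best, at 2956867 in intron 4 of rst, ranked 12838 with a signal of 73.5 and was found in replicate 1 at rank 13315 and in replicate 2 at rank 22115. Introns 1 and 2, which make up most of the gene, held 4 and 5 pooled summits. Of the 14 rst summits of replicate 1, 7 had a partner in replicate 2, and of the 10 of replicate 2, 6 had one in replicate 1. The shares over all peaks were 49.7% and 49.3%.

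sns, the main receptor of fusion-competent myoblasts, had no IDR summit, and the nearest one to its start was 38822 bp upstream. Genes of 50 kb or more without an IDR summit numbered 85 of 313 (27.2%), and some of these, unlike sns, had no pooled summit either. The pooled list had 3 weaker summits in the window of sns. The best lay 712 bp upstream of the start, at rank 11327 with a signal of 85.6, and the others were 1593 bp past the start in intron 1 (rank 23479) and 16309 bp past it in intron 2 (rank 14998).

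The weaker sns peaks differed between the replicates. Replicate 1 had 3 summits, at 777 and 578 bp upstream of the start (ranks 10567 and 16360) and 1699 bp past it (rank 26061). Replicate 2 had 8, of which the best ranked 12294 and lay 23.9 kb along the gene in intron 4, and the others ranked from 19708 to 29909. None of the 3 had a partner within 150 bp among the 8, and none of the 8 had one among the 3. Over all peaks 49.7% of replicate 1 and 49.3% of replicate 2 had a partner. The share among peaks as weak as these was not measured, and the sns peaks were few. No peak of sns was therefore found in both replicates, so neither the promoter-side peak of replicate 1 nor the intronic peaks of replicate 2 had a replicate behind them.

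hbs, the second receptor of fusion-competent myoblasts, had a close pair of IDR summits near the end of its first intron. Intron 1 spans 24.1 kb, and the summits at 15034886 and 15035087 on 2R lay 95.5% and 96.3% of the way along it, 23.5 and 23.7 kb from the start. The distance between them was short enough that their intervals, 15034779-15034920 and 15034882-15035291, overlapped by 39 bp. The first ranked 4572 with a signal of 221, with rank 4656 and a signal of 181 in replicate 1 and rank 4564 and a signal of 41.9 in replicate 2. The second ranked 6897 with a signal of 148 and ranked 7332 with a signal of 115 in replicate 1. Replicate 2 had 1 summit at this place, 48 bp from the first and 153 bp from the second, so the pair was resolved in replicate 1 and in the pooled list only. For both summits of the pair, the nearest start site of a protein-coding gene was not that of hbs. Only their position in the intron places them in hbs.

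The 8 other pooled summits of hbs ranked 17043 or lower, and 7 of them also lay in intron 1. The best, 18.7 kb from the start, had a signal of 50.9 and was found at rank 20808 in replicate 1 and 18996 in replicate 2. A peak 20 kb from the start ranked 8565 in replicate 2 and was not found in replicate 1. Of the 9 hbs summits of replicate 1, 2 had a partner in replicate 2, and of the 7 of replicate 2, 2 had one in replicate 1. Most hbs peaks outside the pair were thus seen in 1 replicate. Over all peaks 49.7% of replicate 1 and 49.3% of replicate 2 had a partner, so a peak seen in 1 replicate was common in these lists.

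**Figure D4:**
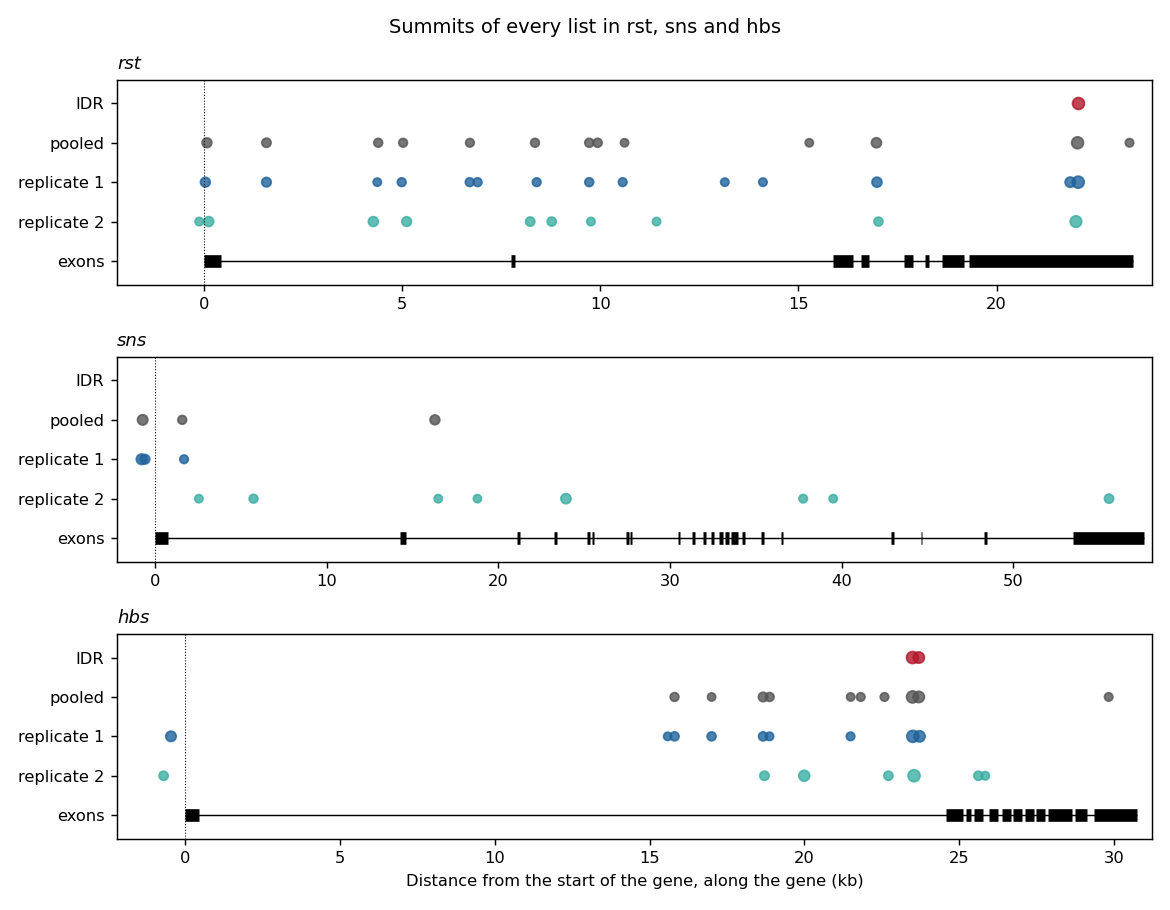
Summits in rst, sns and hbs in each list, with the distance from the start of the gene in kb on the x axis and 1 row for each list; larger points have a better rank within their list and black boxes are exons. The rst IDR summit lies at 22.0 kb in the last exon, the hbs pair at 23.5 and 23.7 kb, and sns has no IDR summit and no replicate 1 summit beside one of replicate 2.

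Set against length, kirre was no longer first. It had 0.757 IDR summits per 10 kb, hbs 0.611, rst 0.393 and sns 0. Among the 1020 protein-coding genes of 20 kb or more the median was 0.39 per 10 kb, with quartiles of 0 and 0.881, and all 4 genes lay below that upper quartile. A lower density than in kirre was found in 68.8% of these genes, than in hbs in 63.3% and than in rst in 50.2%. Among the 313 genes of 50 kb or more the median was 0.3 per 10 kb with an upper quartile of 0.651, which kirre exceeded. There it was at place 64 by density, place 1 by count and place 5 by length. Both sets of genes include some without any pooled summit, which lowers the medians. The genes of 50 kb or more nearest to kirre in density were caps (0.755 per 10 kb), osp (0.76), cv-c (0.761), Antp (0.762) and sima (0.763).

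**Figure D5:**
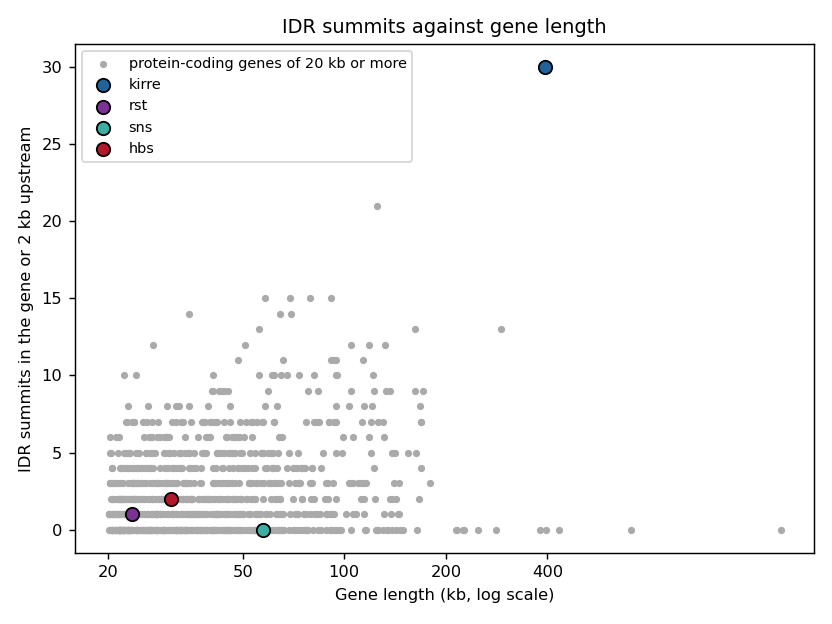
IDR summits in the gene or 2 kb upstream (y axis) against gene length in kb (log x axis) for the 1020 protein-coding genes of 20 kb or more, 1 point per gene. kirre, with 30 summits at 394 kb, stands above all other genes; hbs (2), rst (1) and sns (0) lie among the many long genes with few or no summits.

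Density in the pooled list gave another order of the 4 genes. rst had 5.11 pooled summits per 10 kb, kirre 3.16, hbs 3.05 and sns 0.503. kirre was then at place 92 and sns at place 236 of the 313 genes of 50 kb or more. sns was the lowest of the family on both lists.

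The 32 distinct IDR summits of the family lay mostly in introns. Each summit was given 1 class, a promoter (within 500 bp of any start site) coming before UTR, exon, intron and intergenic sequence, and 26 of 32 were intronic (81.2%, exact 95% interval 63.6-92.8%), against 36.7% of all IDR summits. Promoters held 5 (15.6%, interval 5.28-32.8%), all of them of other genes, against 45.9% of all IDR summits. The remaining summit was that in the 3' UTR of rst, a class that held 0.851% of all IDR summits. The windows searched are almost wholly intron, so these shares describe where in the genes the summits could lie, and the intervals cover counting error only.

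Of the 32 summits 31 were found in both replicates (96.9%, exact 95% interval 83.8-99.9%), against 95.4% of all IDR summits. The exception was the second hbs summit. The procedure that made the list uses agreement between the replicates, so these shares are no independent check of the peaks.

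The sequence at the summits was close to that of other IDR peaks in the features measured. The GC content of the same windows, 50 bp to each side, had a median of 28.2% over the 32 summits, from 14.9 to 47.5%, and of 30.7% over all IDR summits. The ends of that range were the kirre summit in intron 11 and the first hbs summit. TAATTA was found in 3 of 32 windows (9.38%) against 11.3% of all IDR windows, and CANNTG in 10 (31.2%) against 32.8%. CACATG, the E-box of Twist, was found in 2 (6.25%) against 3.27%, and CAAGTG, the NK-2 core bound by Tinman, in 2 (6.25%) against 4.8%. Both of these sequences are also CANNTG and were counted there. The Mef2-type sequence was found in 4 windows (12.5%) against 8.34%, GAGAG, the GAGA factor element, in 1 (3.12%) against 8.02%, and TATCGATA (DREF) and GGTCACAC (M1BP) in none, against 1.58% and 0.851%. With 32 windows the exact 95% interval of each share was wide, for example 1.98-25% for TAATTA and 16.1-50% for CANNTG, and each interval contained the share of all IDR windows.

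All 3 windows with TAATTA belonged to the second stretch of kirre, which held 16 of the 32 summits and was set after the positions had been seen. The 3 windows were at 2993182 in intron 7, 3019802 in intron 9 and 3109109 in intron 11, with ranks 4352, 2028 and 6370. The windows at 2993182 and 3019802 also held CAAGTG, and those at 3018881 and 3046176, both in intron 9, held CACATG. Neither hbs window held any of the 8 motifs.

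Some of the genes that act with the receptors were bound as well. The fusion machinery list held 18 genes, most of them for adaptors and actin regulators that act below the receptors, with the transcription factor gene lmd and the transmembrane protein gene sing besides. Of the 18, 12 had an IDR summit (66.7%), against 40.0% of all protein-coding genes, at a median length of 4.67 kb against 2.16 kb for all. The 7521 highest peaks of replicate 1 gave 12, against 39.5% of all genes, and those of replicate 2 gave 14, against 41.4%. Hem, a subunit of the WAVE complex, had the highest signal (1172, rank 525), followed by mbc, a Rac activator (824, rank 920), siz, an Arf exchange factor (690, rank 1179), and Arp3, a subunit of the actin-nucleating Arp2/3 complex (526, rank 1722). The lead peaks of Hem and mbc lay 308 and 181 bp from their own starts and nearer to those of their neighbours, IleRS (162 bp) and Nup98-96 (37 bp), whereas that of siz was intronic.

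All 3 listed partners of the receptors in the nephrocyte slit diaphragm had an IDR summit, against 40.0% of all protein-coding genes. Their median length was 18.4 kb against 2.16 kb for all, and 70.5% of genes of 20 kb or more were bound. The 7521 highest peaks gave 3 in replicate 1 and 2 in replicate 2. cindr, a CD2AP-type adaptor, had a highest signal of 933 (rank 768), pyd, the ZO-1 homologue, one of 783 (rank 973) with 9 IDR summits in all, and Mec2, a podocin-like protein, one of 136 (rank 7457). Of 20 other genes of immunoglobulin-domain adhesion proteins, 14 had an IDR summit (70%), with a median length of 39.2 kb and a median of 0.399 summits per 10 kb. That share stood beside 40.0% of all protein-coding genes and 70.5% of those of 20 kb or more. The 7521 highest peaks gave 14 of the 20 in replicate 1 and 11 in replicate 2. The highest signals were at Ama (930, rank 770), ed (897, rank 806), Fas3 (883, rank 830) and Bsg (713, rank 1121). The densities of kirre and hbs were thus above the median of these other adhesion genes, that of rst was next to it and that of sns was below it. These lists differ in gene length, and the share of bound genes was higher among long genes. No test was made between the lists.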

How the data were processed

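Per the labels, sonicated chromatin was used and positions are on dm6. Aligner, caller and IDR settings are not given in the sources used here, nor is the read depth. Notes deposited beside the lists say that each replicate and their pool were called against 1 shared control alignment and that these calls yielded the IDR list. For every peak the authors deposited an interval, a summit, a signal score of unstated scale and a −log10 q-value. Ranks use the signal score of 1 list at a time. The −log10 q-value in the deposited files was not used for ranks, because it was 4.37 for all 7521 IDR peaks. Each list of 30000 peaks ends there, and weaker peaks were not analysed here. All 7521 IDR peaks were found to be the highest of the pooled list. The age of 6 to 18 h is that of the source name, and a separate age entry in the labels does not match it. Nothing in the labels says whether the biological replicates came from separate collections of embryos.

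Summits were placed on the Ensembl release 115 annotation, and sequence was read from the RefSeq release 6 genome, both on the coordinates of dm6. Introns were those left after merging the exons of all transcripts of a gene, numbered from its 5' end. The promoter took in 500 bp on each side of a start site, transposons left out. A summit was found in a replicate when one of its summits lay within 150 bp. Motifs were searched on both strands, 50 bp to each side of a summit. Named were the 4 members, genes nested in or overlapping their windows, genes starting within 500 bp of their summits, the 5 long genes nearest to kirre in density, and up to 4 genes of highest signal in each other list. The members, lists and motifs were chosen with earlier results of these data known. There was 1 group, so no test between conditions was made; intervals are exact binomial (Clopper-Pearson). Summit counting was tested on simulated peaks. Alternatives covered the peak list, each replicate alone, the window, the matching distance and the width searched for motifs. Software was pandas 2.3.3, numpy 2.4.6 and scipy 1.17.1 in Python 3.11.15, with plots by matplotlib 3.10.9.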

Additional observations from a re-analysis of the deposited data

How the results depend on the processing

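Of 85 alternative values, 35 moved by more than 1.5 times for a count or density, or out of the 95% binomial interval for a share, and 50 did not. These intervals are wide for shares of 32 summits and narrow for shares of all genes. Among all peaks the counts for kirre, rst, sns and hbs were 125, 13, 3 and 10 in the pooled list, 118, 14, 3 and 9 in replicate 1, and 106, 10, 8 and 7 in replicate 2, by construction, since those lists are longer. Among the 3760 strongest IDR peaks they were 13, 0, 0 and 0, and summits given to the nearest start site of a protein-coding gene left 10, 2, 0 and 0. A window reaching 5 kb upstream gave rst 2 summits, as did any overlap of a peak interval with its window. Leaving out 1 replicate gave 28 to 31 for kirre, 1 for rst, 0 for sns and 1 to 2 for hbs. Counting summits closer than 250 bp once, an alternative added after seeing the data like that without summits near other genes' starts, gave hbs 1. In introns alone rst had 0 IDR summits per 10 kb.

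The share of bound genes was 64.6% in the pooled list, 63.9% and 71.6% in the full lists of replicates 1 and 2, 25.6% with the 3760 strongest IDR peaks, and 39.5% to 41.4% with 1 replicate left out. The share of the 32 summits found in both replicates was 75% within 50 bp, 100% within 300 bp and 100% by overlap of intervals. Windows of 25 bp to each side held CACATG and GAGAG in 0% and CANNTG in 6.25%, and those of 100 bp to each side held CANNTG in 53.1%. Within their intervals, from 25 to 100 bp, TAATTA went from 3.12% to 15.6%, Mef2-type from 6.25% to 18.8% and CAAGTG from 3.12% to 15.6%, and at 100 bp CACATG was at 12.5% and GAGAG at 9.38%; wider windows hold more matches by construction. Promoters of 250 bp held 9.38% of the summits and those of 1 kb 18.8%. The cause of the other changes was not tested. No paired analysis was possible because there was 1 group and no test. Ranking by q-value could not be run, since all IDR peaks share 1 value. The number of replicates, 2, and the unknown read depth limit every count.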
